A study of Danio rerio with 4 samples.

Results

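The genes described here carry out heme synthesis and iron uptake, and 10 were named for the purpose by symbol: alas2, alas1, uros, urod, cpox, fech, slc25a38a, slc25a37, tfr1a and tfr1b. Of these, 9 had a row of their own among the 16662 genes measured, and slc25a38a was not analysed here. RNA came from hearts that were cut out by hand from zebrafish embryos at 48 hours post fertilisation (hpf) and pooled, in 2 libraries labelled tie1 KO (mutant) and 2 labelled tie1 WT (sibling). All 4 libraries came from fish with the transgene Tg(kdrl:eGFP), in which the promoter of an endothelial receptor gene drives a green fluorescent protein. The series' design text speaks of wild-type and heterozygous siblings, so the sibling pools may hold carriers of the mutation. The sources used here do not give the number of hearts per pool, and nothing says that the 2 pools of a genotype came from separate clutches, so p-values measure only the spread between these pools, which may be technical.

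Heme is built from glycine and succinyl-CoA in a chain of enzymes that starts and ends inside the mitochondrion and passes through the cytosol. The first step is made by 5-aminolevulinate synthase, which vertebrates carry as the erythroid gene alas2 and the general gene alas1. Developing red cells need far more heme than other cells. They take up the iron for it bound to transferrin, through the transferrin receptor at the cell surface. The iron then passes the inner mitochondrial membrane through the carrier mitoferrin. A zebrafish heart at this stage is filled with circulating primitive red cells that still hold RNA, so a heart pool contains blood as well as heart wall.

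Values are normalised counts, the authors' whole-number values per gene after scaling of the libraries. They are not corrected for gene length, so levels are compared between libraries and not between genes. Per library, 1770000 to 3240000 reads were assigned to genes, an estimate from the spacing of the low values, and a member rested on an estimated 12 to 1140 reads in a library. Mitochondrial ribosomal RNA took 43.4% and 37.6% of the total in the mutants, against 32.9% and 30.4% in the siblings. The mutated gene tie1 had 123 and 88 in the mutants, against 558 and 300 in the siblings. The heart muscle gene myl7 was present in every library, with 3842 and 1966 in the mutants, against 3595 and 2469 in the siblings.

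Most of the heme and iron genes had lower values in the mutant hearts, but not all of them. In 7 of the 9, the higher mutant value was below the lower sibling value, a pattern that 18.3% of the 12118 genes tested showed. In 1 (cpox) both mutant values lay above both sibling values, as in 15.7% of the genes tested, and in 1 (tfr1b) the groups overlapped. The median log2 fold change, mutant against sibling, was −1.31 over the 9 genes and −0.0016 over all genes tested. The limma test compares each gene's difference with that gene's own spread, drawn toward the spread of genes with a similar mean. With it, no gene passed an adjusted p of 0.05, which is 0% of those tested, and so none of the 9 did. At an unadjusted p under 0.05, 6 of the 9 genes were lower, against 4.34% of all genes. In either direction, 842 genes reached that level. The 9 genes were chosen with earlier results of these data known, so their counts beside these shares only describe them.

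**Figure D1:**
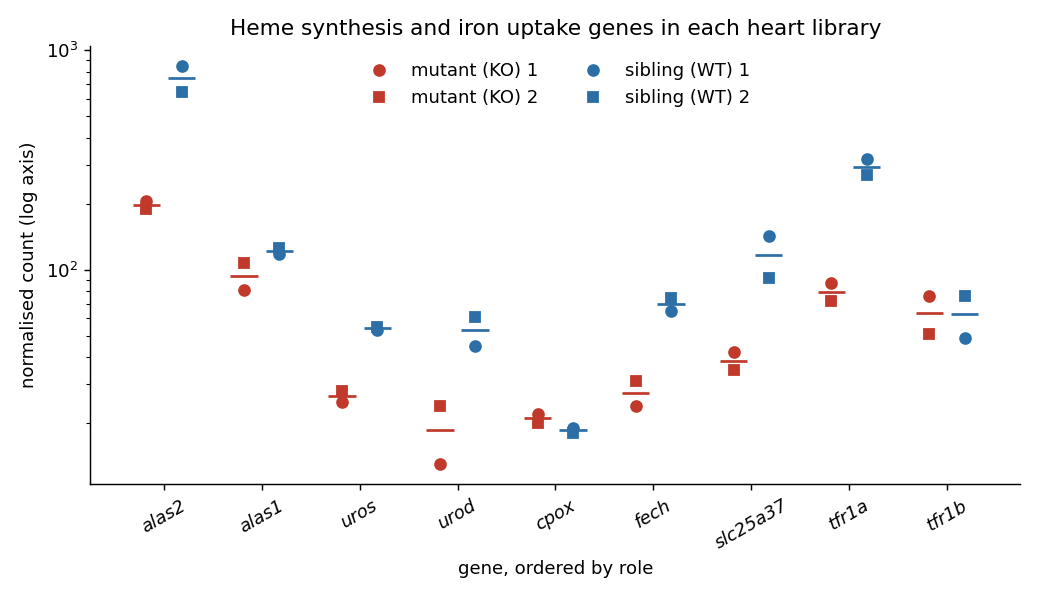
Normalised count of each gene in each library on a log axis, with circles for replicate 1, squares for replicate 2 and a line at the mean of the 2 libraries of a group. The mutant values of alas2, at 206 and 189, lie far below the sibling values of 850 and 649, while those of tfr1b overlap.

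The erythroid synthase gene alas2 (ENSDARG00000038643) lies on the plus strand of chromosome 8, from 21353878 to 21369028 in the build GRCz11. Its normalised counts were 206 and 189 in the mutants, against 850 and 649 in the siblings, a mean of 197.5 ± 12 against 749.5 ± 142.1 (SD, n = 2 each). The lower sibling library was thus well above the higher mutant library. The log2 fold change was −1.91 ± 0.22 (SE), which is a fold of 0.267, with a 95% interval from −2.40 to −1.41 and a limma adjusted p of 0.074, the smallest value reached by any gene and shared with tfr1a and with slc4a1a, a red cell membrane gene whose unadjusted p was the smallest. The gene ela2l overlaps alas2 on the opposite strand, with 15 and 5 in the mutants, against 38 and 21 in the siblings. The sources used here do not state the strand setting of the counting, so reads of this pair cannot be fully told apart.

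The general synthase gene alas1 (chromosome 11, 260763 to 270210, minus strand) had 81 and 107 in the mutants, against 118 and 125 in the siblings. These groups did not overlap, but the gap between the nearest libraries, 107 and 118, was smaller than the difference between the mutant libraries. Its log2 fold change was −0.38 ± 0.24, with a 95% interval from −0.92 to 0.16 and a limma adjusted p of 0.802.

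Within each library, the ratio of alas2 to alas1 does not depend on the scaling of that library. It was 2.54 and 1.77 in the mutants, against 7.2 and 5.19 in the siblings, so both mutant pools had the lower share of the erythroid form. On the log2 scale the ratio averaged 1.08 ± 0.37 in the mutants and 2.6 ± 0.33 in the siblings (SD, n = 2 each), a difference of −1.53. An exact permutation test, two-sided, gave p = 0.333, the smallest that 2 against 2 libraries allow, so the design cannot pass a threshold of 0.05 here. The difference exceeded the spread between replicates, and it lay between −1.79 and −1.27 without any 1 library.

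**Figure D2:**
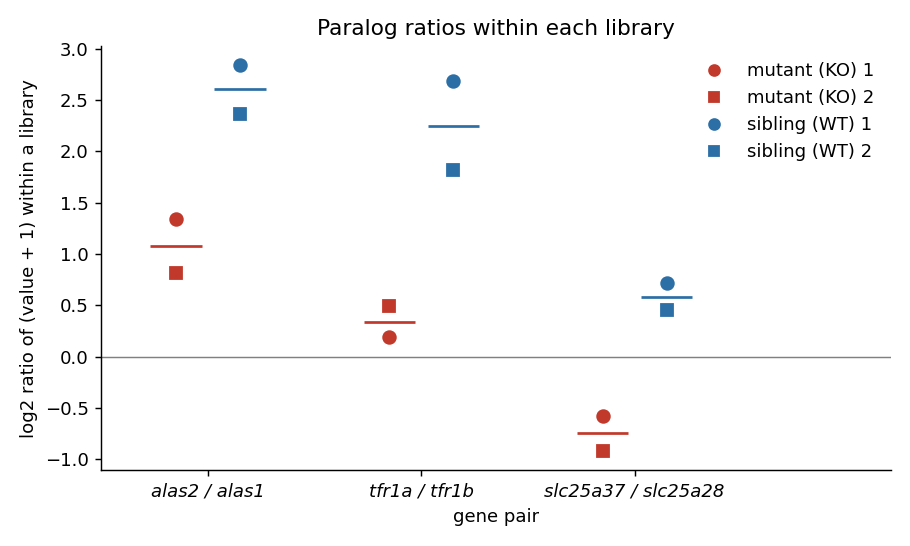
Log2 ratio of (value + 1) for 3 gene pairs within each library, with circles for replicate 1, squares for replicate 2 and a line at the group mean. In each pair, the 2 mutant libraries lie below the 2 sibling libraries.

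The cytosolic middle of the chain is represented by uros and urod. The gene uros encodes uroporphyrinogen III synthase, which closes the porphyrin ring, and lies on the plus strand of chromosome 12, from 48674381 to 48682751. It had 25 and 28 in the mutants, against 53 and 55 in the siblings. Both groups were tight and did not overlap, with a log2 fold change of −1.0 ± 0.28 and a limma adjusted p of 0.459.

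The gene urod encodes uroporphyrinogen decarboxylase, which trims the side chains of the ring, and lies on the minus strand of chromosome 2, from 27556168 to 27575803. Its values were 13 and 24 in the mutants, against 45 and 61 in the siblings, for a log2 fold change of −1.51 ± 0.37 with a limma adjusted p of 0.399. The groups did not overlap, though the mutant values were further apart from each other, as a ratio, than those of any of the other 8 genes. The value in mutant 1 rests on an estimated 12 reads.

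The last steps, back in the mitochondrion, differed from each other. The gene fech encodes ferrochelatase, which inserts the iron, and lies on the plus strand of chromosome 21, from 1647990 to 1670264. It had 24 and 31 in the mutants, against 65 and 74 in the siblings, with no overlap, and a log2 fold change of −1.31 ± 0.28 (limma adjusted p of 0.273). The gene cpox encodes coproporphyrinogen oxidase, which acts before it, and lies on the minus strand of chromosome 8, from 18601252 to 18613948. It had 22 and 20 in the mutants, against 19 and 18 in the siblings, for a log2 fold change of 0.17 ± 0.36 with a 95% interval from −0.65 to 0.996 and a limma adjusted p of 0.952. The cpox values were nearly level in all 4 libraries and rest on an estimated 15 to 25 reads each.

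**Figure D3:**
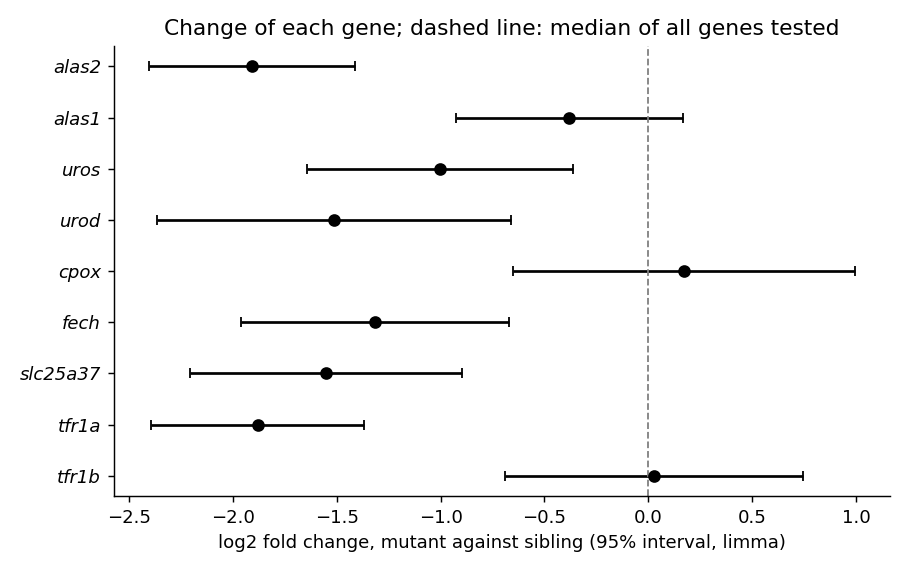
Log2 fold change of each gene, mutant against sibling, with its 95% interval from limma, and a dashed line at the median of all genes tested. The intervals of alas1, cpox and tfr1b cross 0, while those of the other 6 genes lie below it before any adjustment for multiple tests.

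The other 4 enzyme genes of the chain also went different ways. Of these, hmbsb is named for its high count, and hmbsa, ppox and alad for completeness after their values were seen. Porphobilinogen deaminase, the enzyme before uros, has a pair of genes, of which hmbsb had 46 and 32 in the mutants, against 114 and 93 in the siblings, for a log2 fold change of −1.40 ± 0.28. Its paralog hmbsa had 40 and 32 against 26 and 39, with overlapping groups. The gene ppox encodes protoporphyrinogen oxidase, the step between cpox and fech, and had 14 and 9 against 60 and 40, for a log2 fold change of −2.03 ± 0.38. The gene alad, whose enzyme makes the second step, had 33 and 48 against 34 and 35, with overlapping groups. With these 4, the 10 enzyme genes numbered 7 with lower and 3 with higher mean log2 values in the mutants, with a median log2 fold change of −1.16, and 0 of 10 passed the limma test. The smallest limma adjusted p among these 4 was 0.21, for ppox.

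Iron reaches the ferrochelatase through mitoferrin. The gene slc25a37 encodes mitoferrin 1, the form on which zebrafish red cells depend, and lies on the plus strand of chromosome 8, from 50190742 to 50217915. It had 42 and 35 in the mutants, against 142 and 92 in the siblings, a mean of 38.5 ± 4.95 against 117 ± 35.4 (SD, n = 2 each). The groups did not overlap, with a log2 fold change of −1.55 ± 0.29, equal to a fold of 0.341, and a limma adjusted p of 0.201. The paralog slc25a28, the gene of mitoferrin 2, had 63 and 67 against 86 and 67, for a log2 fold change of −0.22 ± 0.25. The ratio of slc25a37 to slc25a28, chosen with the values in view, came to 0.667 and 0.522 in the mutants, against 1.65 and 1.37 in the siblings, with an exact permutation p of 0.333, the smallest possible.

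Among 8 other tested genes of mitochondrial heme and iron transport, 7 had lower and 1 had higher mean log2 values in the mutants, and 0 passed the limma test. Their median log2 fold change was −0.34. Without overlap, 4 of the 8 were lower in the mutants and 1 was higher, beside 18.3% and 15.7% of all genes tested. The gene slc25a38b, the paralog of slc25a38a and a gene of the mitochondrial glycine carrier, was named after its values were seen and had 21 and 28 against 40 and 25, with overlapping groups.

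Of the 3 paralog pairs whose ratio was taken, the transferrin receptor genes had the largest difference between mutants and siblings, though without mutant 1 it was −1.76, against −1.79 for alas2 and alas1. The gene tfr1a lies on the minus strand of chromosome 2, from 4849269 to 4874966, and encodes the receptor that zebrafish red cells need for iron uptake. It had 87 and 72 in the mutants, against 320 and 270 in the siblings, a mean of 79.5 ± 10.6 against 295 ± 35.4 (SD, n = 2 each). Both mutant pools were far below both sibling pools, with a log2 fold change of −1.88 ± 0.23 (a fold of 0.272), a 95% interval from −2.39 to −1.37 and a limma adjusted p of 0.074.

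Its paralog tfr1b (chromosome 24, 26017094 to 26031204, plus strand) had 76 and 51 in the mutants, against 49 and 76 in the siblings. The groups spanned nearly the same range, with a log2 fold change of 0.03 ± 0.32, a 95% interval from −0.69 to 0.75 and a limma adjusted p of 0.996. Without mutant 1 or without sibling 1 the estimate turned negative, at −0.25 and −0.28. The ratio of tfr1a to tfr1b was 1.15 and 1.41 in the mutants, against 6.53 and 3.55 in the siblings. On the log2 scale it averaged 0.34 ± 0.21 against 2.25 ± 0.61 (SD, n = 2 each), a difference of −1.91 with an exact permutation p of 0.333, again the smallest possible. The difference lay between −2.34 and −1.47 without any 1 library.

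For alas2 and tfr1a, the call over all genes depended on the settings. Both passed in 5 of the 10 alternatives to the limma fit that kept all libraries, with adjusted p from 0.0012 to 0.514 for alas2 and from 0.0017 to 0.514 for tfr1a, the highest without a mean-variance trend. In the other 4, which leave out a library and so have a group of 1, adjusted p ran from 0.659 to 0.902 for both genes, and such a fit could hardly call any gene. Both genes stayed lower in each of these 14. The alternatives in which both passed were TMM scaling (0.021), scaling to the total without mitochondrial ribosomal RNA and the 10 highest genes (0.0127), a minimum mean of 50 (0.0142), the robust setting (0.013) and the replicate block (0.0012 for alas2 and 0.0017 for tfr1a). The gene slc25a37 passed in 1, the replicate block, at a limma adjusted p of 0.024, and the other 6 genes passed in none. The replicate block treats pools of the same number as pairs, which they are not known to be.

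Of 7 tested genes of the list apart from tfr1a and tfr1b, 4 had lower and 3 had higher mean log2 values, with a median of −0.03, and 0 passed the limma test. The gene slc11a2 encodes the divalent metal transporter that moves iron out of the endosome, was named after its values were seen, and had 36 and 36 in the mutants, against 64 and 55 in the siblings, for a log2 fold change of −0.71 ± 0.27. The exocyst gene exoc6 had 87 and 76 against 64 and 72. The gene tfa, of transferrin itself, a liver product, had 152 in mutant 1 and 882 in mutant 2, and 146 and 219 in the siblings. The high value stands in mutant 2 alone, and mutant 1 lies within the sibling range.

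Liver markers moved with that library. The 8 rows of the liver list, of which tfa is one, summed to 6735 in mutant 2 and to between 1916 and 2461 in the other libraries. All 7 tested liver genes had higher mean log2 values in the mutants, 1 of them without overlap, a pattern of 15.7% of all genes tested. The liver fatty acid binding gene fabp10a, also named with its values in view, was at 20 in mutant 2, at 1 in sibling 2 and at 0 in the other libraries. The part of liver RNA in the tfa value was not tested.

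The ferritin gene fth1a and its partner ncoa4 had lower values in the mutants as well. Of 5 tested genes of iron storage and export, 4 were lower and 1 was higher by mean log2 value, with a median of −0.21, and 0 passed the limma test. The higher one was cp, also on the liver list, with 3 and 77 in the mutants against 4 and 6, so high in mutant 2 alone. The ferritin heavy chain gene fth1a had 574 and 696 in the mutants, against 1217 and 1242 in the siblings, for a log2 fold change of −0.96 ± 0.21. The gene ncoa4, of the receptor that delivers ferritin for breakdown, had 129 and 125 against 229 and 189, for a log2 fold change of −0.71 ± 0.22. Neither overlapped between groups, with limma adjusted p of 0.285 and 0.549. The iron exporter gene slc40a1, of ferroportin, had 96 and 127 against 126 and 124.

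Genes of heme breakdown went both ways. Of 6 tested genes, 4 were lower and 2 were higher by mean log2 value, with a median of −0.17, and 0 passed the limma test. The biliverdin reductase gene blvrb had 43 and 43 in the mutants, against 103 and 94 in the siblings, for a log2 fold change of −1.18 ± 0.24. The second biliverdin reductase gene blvra, named after its values were seen, had 14 and 15 against 32 and 32, or −1.09 ± 0.35. The heme oxygenase gene hmox2a was higher without overlap, with 44 and 40 against 34 and 26, for a log2 fold change of 0.48 ± 0.30, and hmox2b had 25 and 29 against 32 and 25.

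The lists of genes that regulate the synthase, sense iron or build iron-sulfur clusters had medians near that of all genes, with single genes further away. The 8 genes of synthase regulation split into 4 lower and 4 higher, with a median log2 fold change of 0.03. Of these, clpxa and clpxb, which encode the mitochondrial unfoldase ClpX that acts on the synthase, stood at −0.32 ± 0.25 and −0.05 ± 0.22. The 8 iron-sensing genes split into 3 lower and 5 higher, with a median of 0.01, where neo1a, bmp6 and smad1 lay at −0.20 ± 0.23, 0.19 ± 0.24 and −0.12 ± 0.37. The 10 iron-sulfur cluster genes split into 7 lower and 3 higher, with a median of −0.14, where hspa9 lay at −0.10 ± 0.20, nfs1 at −0.37 ± 0.25 and glrx5 at 0.08 ± 0.25. Farther from 0, and picked with their values in view, stood the mitochondrial gene fam210b, with 31 and 13 against 44 and 45, or −1.10 ± 0.41, the iron regulatory protein gene ireb2 at −0.59 ± 0.28 and the iron-sulfur assembly gene isca1 at −0.51 ± 0.32, each without overlap, and the mitochondrial protease gene lonp1 at 0.67 ± 0.38, with overlap. In these 3 lists 0 genes passed the limma test.

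**Figure D4:**
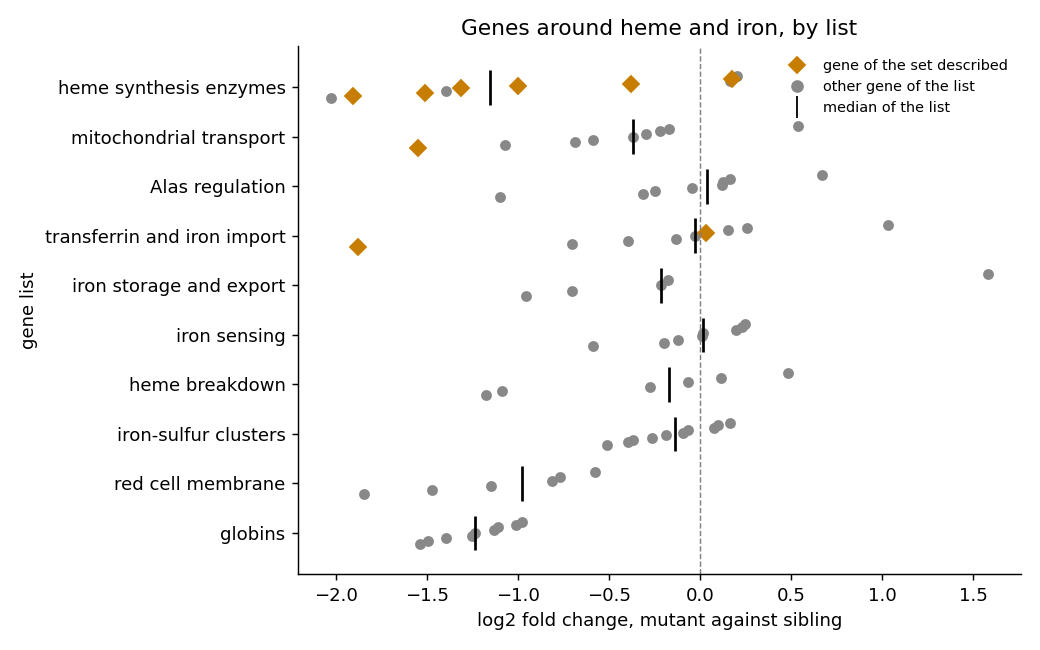
Log2 fold change, mutant against sibling, of every tested gene in 10 lists around heme and iron, with diamonds for the genes described here, circles for the other genes of a list and a bar at the list's median. The medians run from −1.24 for globin genes and −1.16 for heme synthesis enzymes to 0.03 for genes that regulate the synthase.

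Red cell genes outside heme synthesis were lower beside them. Of 6 tested genes of the red cell membrane, 6 were lower in the mutants without overlap, beside 18.3% of all genes tested, with log2 fold changes from −1.85 to −0.58 and a median of −0.98. Their list summed to 3193 and 3136 in the mutants, against 8123 and 6373 in the siblings. The 9 tested globin rows, between which reads may be split, were likewise lower without overlap, from −1.54 to −0.98 with a median of −1.24, and summed to 2656 and 2629 against 6109 and 6093. None of these genes passed the limma test. In these pools, fewer red cells and less RNA per red cell cannot be told apart.

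Among 7 tested genes of erythroid transcription factors, 6 were lower and 1 was higher, all without overlap (beside 18.3% and 15.7% of all genes tested), and the median log2 fold change was −0.56. Those with the highest counts, zfpm1, tal1 and klf1, stood at −0.55 ± 0.25, −1.16 ± 0.30 and −1.21 ± 0.35, and 0 passed the limma test.

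Set against the mean log2 value of the 6 red cell membrane genes in the same library, the 9 genes spread over more than 2 log2 units. Each difference is the gene's log2 fold change less an amount that is the same for all 9 genes. The order and spread of the genes thus repeat those of the fold changes and add nothing to them. For alas2 this relative level was −0.48 and −0.70 in the mutants, against 0.22 and 0.20 in the siblings, a difference of −0.80. For tfr1a it was −1.71 and −2.08 against −1.18 and −1.06, a difference of −0.77. The groups did not overlap for these 2 genes, and each difference was larger than the spread between replicates. The membrane genes themselves differed, with log2 fold changes from −1.85 for slc4a1a to −0.58, beside −1.91 for alas2 and −1.88 for tfr1a. Relative to the single membrane gene slc4a1a, the anion exchanger of red cells, the ratio of alas2 was 0.687 and 0.521 in the mutants, against 0.678 and 0.575 in the siblings, and the groups overlapped. It was picked as a reference with the values in view.

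The other genes lay closer to the membrane genes or above them. The relative difference was −0.44 for slc25a37, −0.41 for urod, −0.21 for fech and 0.10 for uros, and the groups overlapped for the last 3. Without 1 library it ran from −0.62 (without mutant 1) to −0.27 (without mutant 2) for slc25a37, and from −0.81 (without sibling 1) to −0.008 (without sibling 2) for urod. It was 0.73 for alas1, 1.13 for tfr1b and 1.28 for cpox, with both mutant values above both sibling values, and for tfr1b it ran from 0.64 without sibling 1 to 1.63 without sibling 2. With 8 globin rows as the reference, the differences were −0.63 for alas2, −0.61 for tfr1a, −0.28 for slc25a37, −0.24 for urod and −0.04 for fech. They were 0.27 for uros, 0.89 for alas1, 1.3 for tfr1b and 1.45 for cpox. Against the globin rows, the groups overlapped for slc25a37, urod and fech, but not for uros. In both sets the exact permutation p was 0.333 at best.

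**Figure D5:**
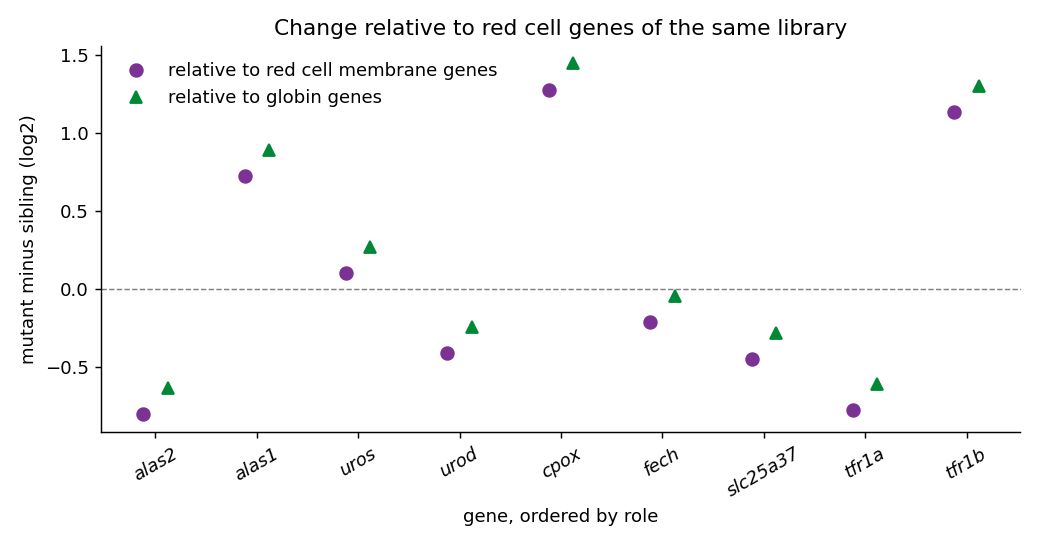
Difference between mutants and siblings in the log2 level of each gene relative to red cell genes of the same library, with circles for 6 membrane genes and triangles for 8 globin rows as the reference. The genes alas2 and tfr1a lie lowest, at −0.80 and −0.77 against membrane genes, and cpox lies highest, at 1.28. This order is fixed by the log2 fold changes of the genes.

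Across the 4 libraries, tfr1a had the pattern most like that of alas2. Among the 5410 other genes whose mean was 50 or more, the root mean square distance between centred log2 values was smallest for tfr1a, at 0.0739. Next came tubb1, a beta-tubulin gene, at 0.0930, nt5c2l1 at 0.15, ckmb, a muscle creatine kinase gene, at 0.162 and slc4a1a at 0.167. The gene tubb1 had 43 and 45 in the mutants, against 174 and 135 in the siblings, and ckmb had 29 and 29 against 110 and 114. Of the other genes described here above that mean, slc25a37 ranked 7 at a distance of 0.201, alas1 ranked 869 at 0.803 and tfr1b ranked 3864 at 1.04. With 4 libraries, a short distance describes these pools only.

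The annotation deposited with the table assigns 25 genes to the KEGG pathway of porphyrin metabolism, among them the 6 enzymes alas2, alas1, uros, urod, cpox and fech. Of the 16 other tested genes of that pathway, 9 had lower and 7 had higher mean log2 values in the mutants, with a median of −0.06. Among the 7 is cp, which was high in mutant 2 alone. Without overlap, 4 of the 16 were lower in the mutants and 1 was higher, beside 18.3% and 15.7% of all genes tested. This wider annotation includes genes of heme breakdown and of cytochrome assembly.

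Other cell types also differed in level between the pools. Of 13 tested endothelial markers, 12 were lower (median −0.53), and their list summed to 3576 and 2217 in the mutants, against 5737 and 3592 in the siblings. The sums of mutant 1 and sibling 2 were thus nearly equal. Of the 13, which include the mutated gene tie1 itself, 7 were lower without overlap, beside 18.3% of all genes tested. Of 9 tested rows of skeletal muscle, 8 were lower (median −1.63), 6 of them without overlap, beside 18.3% of all genes tested. Their list summed to 1563 and 1707 against 2977 and 2856. These sums hide a split, shown here by rows picked with their values in view. Low in mutant 1 alone were mylpfa, with 12 and 117 against 103 and 141, and myhz2, with 10 and 119 against 135 and 120. In ckmb both mutants were low, at 29 and 29 against 110 and 114. Of 10 heart muscle genes, 8 were lower (median −0.14), with sums of 56762 and 32094 against 77604 and 52597, which overlap. Without overlap, 1 of the 10 was lower and 1 was higher, beside 18.3% and 15.7% of all genes tested. Of 7 tested macrophage and neutrophil genes, 6 were higher, with a median of 0.43. Of these 7, 4 were higher without overlap, beside 15.7% of all genes tested. The 11 rows of their list, some of them too low to be tested, summed to 203 and 316 against 136 and 198. Here too the sums of mutant 1 and sibling 2 were nearly equal. Some genes of these lists had no row, and none of those with a row was at 0 in all libraries. How genes were filtered is not stated, so this does not show that every marker was detected. The part of these cell types in the values of the heme and iron genes was not tested.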

How the data were processed

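Total RNA (2 ng) from pooled hearts went into a stranded kit for very small inputs, per the labels' protocols. The build GRCz11 (danRer11) and the tools STAR 2.4.0a, Subread with featureCounts 1.4.5-p1, and FastQC are listed, with no roles, in the submitters' processing notes. The authors deposited 1 table of normalised counts as whole numbers, treated here as a score with no fixed unit because the spacing of low values points to library factors. The best-fitting factors were 0.904 and 0.75 in the mutants, 1.341 and 1.146 in the siblings. Observed and predicted spacing correlated at 0.664 and 0.958 in the mutants, and at 0.829 and 0.512 in the siblings. The estimated reads rest on these factors and are rough where the fit was weak. How the values were normalised, which strand was counted and how genes were filtered is not stated in the sources used here.

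Values were analysed as log2(value + 1), a scale on which low genes change less. The 12118 genes whose mean was 10 or more entered limma 3.58.1 (R 4.3.3), fitted with a trend of variance on mean, and p-values were adjusted by Benjamini-Hochberg over all of them. All adjusted p-values come from limma, and the fit was tested on simulated data. Values cover counting error and pool spread together, and no molecular identifiers are given.

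The members and gene lists were chosen with earlier results of these data known. By rule, the text names all members, up to 3 genes of each list by highest count, and the 5 genes most like alas2. Further genes are named outside this rule, most of them after their values were seen. Gene symbols and coordinates are those of the deposited table. The values of 1 gene that this rule would name are not reported here.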

Additional observations from a re-analysis of the deposited data

How the results depend on the processing

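All 9 genes kept their direction in each alternative that tested them, except tfr1b, at −0.25 without mutant 1 and −0.28 without sibling 1, where its range without 1 library reached 0.34. The genes past the threshold numbered 13 with a mean of at least 50, 8 with TMM scaling, 10 with scaling without mitochondrial ribosomal RNA and the 10 highest genes, 16 with the robust setting and 95 with the replicate block, against 0 in the main fit and from 0 to 0 without 1 library. Of the 9 genes 5 have a mean of at least 50, and 4 of these were lower without overlap. That pattern was shown by 18.3% of the 12118 genes with a mean of 10 or more, and its share at a mean of 50 was not computed. Leaving out a library cannot remove the pattern from a gene, so the 7 genes keep it by construction and this is no check. The median log2 fold change of the genes was −1.09 with a pseudocount of 10 and −1.55 with a mean of at least 50, and ran from −1.42 to −1.10 without 1 library. The median difference relative to red cell membrane genes was −0.21 and ran from −0.32 to 0.0675 without 1 library, turning positive without sibling 2. The relative difference of fech, which is that median, ran from −0.48 to 0.0675, and that of uros from −0.11 (without sibling 1) to 0.31. The cause was not tested.

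The replicate numbers are not known to pair the pools. The differences between libraries 1 and 2 correlated at 0.198 between mutants and siblings over 12118 genes, and with 2 pairs this does not show pairing. Depth limits urod in the mutants, at an estimated 12 and 18 reads, and cpox, at 15 to 25 reads a library. Without a length per gene, levels of different genes were not ranked.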
